A study of Mus musculus with 12 samples.

Results

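Expression of 9 choroid plexus-type genes (Tmem72, Mfrp, C1qtnf5, Ttr, Folr1, Clic6, Kcnj13, Kcne2 and Kl) was followed in the cochlear epithelium of mouse embryos. Several of them are also known from other tissues, such as eye, kidney and stomach. The genes were picked by name, in part because Tmem72 and Mfrp had stood out in earlier results of these data, and all 9 were found among 22869 gene symbols. Each was read from its transcript row with the largest sum of reads. The rows of Mfrp and C1qtnf5 hold the same reads, so that the 9 genes gave 8 measurements. The comparison was between 3 Esrp1-/- embryos (Esrp1 knockout) and 3 Esrp1+/+ embryos (control), all of strain C57BL/6 at embryonic day 16.5. Collagenase was used to take the mesenchyme off the dissected epithelium, the 2 cochleae of an embryo went into 1 RNA sample, and each embryo gave 2 libraries of polyA RNA. The labels give the genotype of the whole embryo and name no Cre driver. Because the genes were chosen with their levels in these embryos known, their differences between the groups are given as descriptions, without p-values.

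The choroid plexus is a folded epithelium in the brain ventricles that secretes cerebrospinal fluid. Its cells carry ions, folate and thyroid hormone between blood and fluid, and they express a characteristic set of carriers, channels and secreted proteins. The cochlear duct also makes a special fluid, the potassium-rich endolymph, with an epithelium of the lateral wall, the stria vascularis. Its roof, the Reissner membrane, is a thin epithelium in which the homeobox factor OTX2 is expressed. OTX2 is also needed for the choroid plexus to form. ESRP1 regulates splicing in epithelial cells by binding RNA, and the comparison asks what changes in the developing cochlea without it.

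The depth was 12547301 to 18473139 reads over genes in knockout embryos, and 16411205 to 21568516 in control embryos. Levels are given as CPM, the read count scaled to library size after TMM normalisation, and fold changes are knockout over control on the log2 scale from edgeR. In edgeR's quasi-likelihood test over 14717 genes, 22 passed the threshold of 0.05 on the adjusted p, which is 0.149% of those tested, and 12 of them were higher in knockouts. An unadjusted p under 0.05 in this test was found for 702 of the 14717 genes, and DESeq2 called 167 genes. The counts of both kinds given below for lists of genes stand beside these. Reads over Esrp1 itself fell to 27.2, 34.3 and 39.1 CPM in knockout embryos, against 197, 102 and 118 CPM in control embryos (log2 fold change -2.05 ± 0.26, adjusted p = 0.0354). Leaving out single embryos moved its adjusted p to between 0.00967 and 0.158. The cochlear origin of the tissue rests on the dissection. As a check, 12 genes that cochlear epithelium expresses were read, Epcam, Sox2 and Otoa among them. All 12 were expressed in every embryo, and none passed the test. Of these, 2 had an unadjusted p under 0.05, and DESeq2 called 1. Otoa, which encodes the attachment protein otoancorin, had the smallest adjusted p (log2 fold change 1.05, adjusted p = 0.495).

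The 3 members whose annotated promoters are printed here are those with the largest ratios of knockout to control reads, Tmem72, the Mfrp and C1qtnf5 pair, and Kcne2. The windows run from 250 bases before to 50 bases after the annotated start in RefSeq, assembly GRCm38.p6, the assembly that mm10 represents. They were searched on both strands for TAATCC, a core to which OTX factors bind, and for TAATTA, a general homeobox core. Capitals mark a match.
Tmem72, chr6:116716709-116717008, minus strand: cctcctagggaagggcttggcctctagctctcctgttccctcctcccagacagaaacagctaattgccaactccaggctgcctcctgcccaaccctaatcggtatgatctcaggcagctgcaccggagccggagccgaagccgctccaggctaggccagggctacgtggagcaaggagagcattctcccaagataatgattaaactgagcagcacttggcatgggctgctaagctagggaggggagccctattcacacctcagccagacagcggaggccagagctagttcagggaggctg
Mfrp and C1qtnf5, chr9:44101520-44101819, plus strand: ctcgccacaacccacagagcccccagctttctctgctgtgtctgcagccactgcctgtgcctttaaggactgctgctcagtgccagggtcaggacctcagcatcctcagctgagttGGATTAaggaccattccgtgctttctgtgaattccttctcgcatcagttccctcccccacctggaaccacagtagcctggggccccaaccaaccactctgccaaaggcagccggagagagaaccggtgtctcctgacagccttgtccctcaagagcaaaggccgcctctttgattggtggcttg
Kcne2, chr16:92292139-92292438, plus strand: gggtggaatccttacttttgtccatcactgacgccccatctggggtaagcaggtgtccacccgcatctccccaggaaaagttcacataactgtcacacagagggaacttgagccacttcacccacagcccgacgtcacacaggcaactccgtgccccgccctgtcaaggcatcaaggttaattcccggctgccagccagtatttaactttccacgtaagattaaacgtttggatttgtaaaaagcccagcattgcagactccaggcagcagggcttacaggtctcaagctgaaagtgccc

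Mfrp and C1qtnf5 share the annotated start of the window printed here. It held 1 TAATCC, which reads GGATTA on the printed strand, 134 bases before the start. A shorter transcript of C1qtnf5 begins at 44107274 in GENCODE M21, and no window at that start was among those searched for the members. The windows of Tmem72 and Kcne2 held neither motif. The same was true of a second annotated start of Kcne2 and of Kcnj13 and Kl, the other members with a window that was searched. Over 32851 annotated mouse promoters of this length, 7.06% held TAATCC, 5.29% held TAATTA and 11.9% held at least 1 of them, with overlapping matches allowed. Such a match describes the letters of the window and shows no binding.

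Tmem72 was the member that separated the groups most. It encodes a membrane protein of poorly known function that is expressed in kidney and choroid plexus, and it lies on chromosome 6 from 116691539 to 116716982 (mm10, minus strand). Its row held 219, 173 and 163 reads in knockout embryos 1, 2 and 3, against 7, 6 and 2 reads in control embryos 1, 2 and 3. All 3 knockout embryos lay far above all 3 controls, and the gene was close to undetected in controls. In CPM the levels were 16.7, 9.29 and 10.9 in knockouts, against 0.439, 0.272 and 0.108 in controls. The ratio of summed reads was 44.8 (exact 95% interval 26.9 to 80.6, for counting error only), and the fitted log2 fold change was 5.48 ± 0.45 (SE). In these bulk samples, more cells that express a gene and more of its RNA per cell cannot be told apart.

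Mfrp encodes a frizzled-related membrane protein of the retinal pigment and ciliary epithelia that is needed for normal eye growth. C1qtnf5 encodes a secreted protein of the C1q and TNF family, mutated in a late-onset retinal degeneration of humans. Both lie on chromosome 9 from 44101770 to 44109187 (mm10, plus strand), where transcripts of Mfrp run on through the exons of C1qtnf5. Their shared row held 120, 208 and 143 reads in knockout embryos, against 36, 25 and 24 reads in controls. That is 9.15, 11.2 and 9.54 CPM in knockouts, against 2.26, 1.13 and 1.29 CPM in controls. The groups did not overlap, and the knockout embryos differed among themselves by only 1.22-fold. The ratio of summed reads was 6.71 (exact 95% interval 5.31 to 8.55), and the log2 fold change was 2.68 ± 0.31.

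A shorter row, over the exons of C1qtnf5, allowed the shared reads to be divided by exon, though not by gene. In the GENCODE M21 model the long transcript has 14 exons and 4316 bases, and the short one 3 exons and 1337 bases beginning at 44107274. The short row was subtracted from the long one to give the reads on exons of Mfrp outside the short row. This Mfrp part held 79, 136 and 86 reads in knockout embryos, which is 65.8%, 65.4% and 60.1% of the long row. In controls it held 11, 4 and 14 reads, which is 30.6%, 16.0% and 58.3%. The shares of knockout embryos lay close together and above those of the 3 controls, although control 3 came near them. Summed over embryos, the Mfrp part was 301 of 471 reads in knockouts (63.9%, exact 95% interval 59.4 to 68.3) and 29 of 85 reads in controls (34.1%, 24.2 to 45.2). The Mfrp part was 12.6 times higher in knockouts than in controls (8.57 to 19.1), and the C1qtnf5 part 3.67 times higher (2.70 to 5.06). These intervals on summed reads cover counting error only, and not the spread between embryos. Transcripts of Mfrp run on through the C1qtnf5 exons, so the C1qtnf5 part can hold reads of both genes. Whether C1qtnf5 rose by itself was not tested. The difference between rows is net, so that reads held by the short row alone would cancel against it. Both parts come from the contrast on which the genes were picked and are a description of it.

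**Figure D1:**
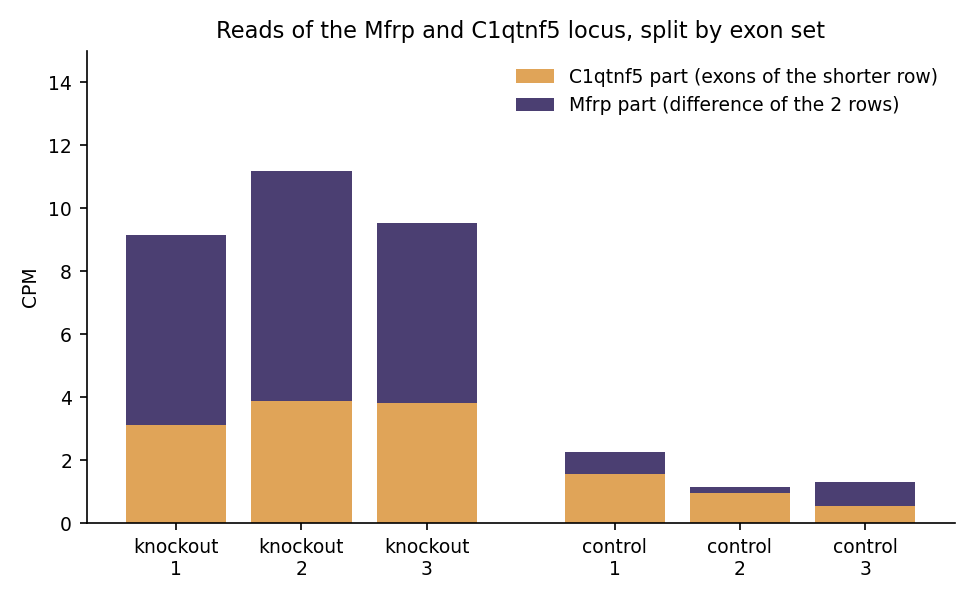
Bars give the CPM of the shared row of Mfrp and C1qtnf5 in each embryo, knockouts left and controls right. They are divided into the C1qtnf5 part (orange), whose exons transcripts of Mfrp also cover, and the Mfrp part (purple). The Mfrp part was 5.74 to 7.30 CPM in knockouts and 0.181 to 0.754 CPM in controls, and the C1qtnf5 part was 3.13 to 3.87 CPM in knockouts and 0.539 to 1.57 CPM in controls.

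Kcne2 encodes a beta subunit of potassium channels that works at the apical side of the choroid plexus and in acid-secreting stomach cells. It lies on chromosome 16 from 92292389 to 92298133 (mm10, plus strand). Its reads were 37, 9 and 17 in knockout embryos, against 3, 2 and 1 in controls, or 2.82, 0.483 and 1.13 CPM against 0.188, 0.0907 and 0.0539 CPM. Every knockout embryo was above every control, but at levels too low to pass the filter on reads, so that the gene was not tested in the main fit. Without the filter its log2 fold change was 3.65 in edgeR, short of the threshold, and 3.74 in DESeq2, past it. The ratio of summed reads was 12.7 with an exact 95% interval of 5.52 to 35.9, wide because the controls held so few reads.

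Ttr encodes transthyretin, a carrier of thyroid hormone and retinol in blood and cerebrospinal fluid, and lies on chromosome 18. Its reads were 1920, 437 and 366 in knockout embryos, against 228, 315 and 206 in controls. In CPM that was 146, 23.5 and 24.4 in knockouts, against 14.3, 14.3 and 11.1 in controls. The groups did not overlap, but knockout embryo 1 stood apart at 6.11 times the mean of knockouts 2 and 3. The log2 fold change was 2.29 ± 0.67 with all embryos and 0.85 ± 0.17 without knockout 1. With control 1 left out as well, it was 0.90. Knockouts 2 and 3 expressed the Y-linked gene Ddx3y and nearly no Xist, while knockout 1 and the 3 controls expressed Xist, so that the fit without knockout 1 sets Ddx3y-positive knockouts against Xist-positive controls. With sex as a term, the fit rests on knockout 1 against the controls, and the log2 fold change was 3.47 ± 0.16.

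Folr1 encodes folate receptor alpha, which carries folate across the choroid plexus. It had 20, 5 and 8 reads in knockout embryos, against 11, 6 and 6 in controls, and was not tested. Knockout embryo 1 was again the highest of the 6 (1.52 CPM), while knockout 2 (0.268 CPM) lay just below the range of controls (0.272 to 0.689 CPM) and knockout 3 (0.534 CPM) within it. The ratio of summed reads was 1.74, with an exact 95% interval of 0.989 to 3.10.

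Kcnj13 encodes the inward rectifier potassium channel Kir7.1 of the choroid plexus and the retinal pigment epithelium. It was at 2.36, 1.34 and 2.00 CPM in knockout embryos, against 1.75, 0.771 and 2.53 CPM in controls, and the groups overlapped throughout. Its log2 fold change was 0.17 ± 0.48, and its sign turned without knockout 1 (-0.02) or without control 2 (-0.19). Clic6, a chloride intracellular channel gene on chromosome 16 from 92498147 to 92541241 (mm10, plus strand), was abundant in both groups. It was at 105, 132 and 209 CPM in knockout embryos, against 218, 113 and 149 CPM in controls, with a log2 fold change of -0.10 ± 0.30. Here too the sign depended on single embryos, with 0.08 without knockout 1 and 0.18 without control 1. Kl encodes klotho, the co-receptor of the hormone FGF23 in kidney and choroid plexus. It had 2, 6 and 8 reads in knockouts against 10, 13 and 7 in controls, at or near the limit of detection in both groups (ratio 0.645, exact 95% interval 0.329 to 1.22).

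**Figure D2:**
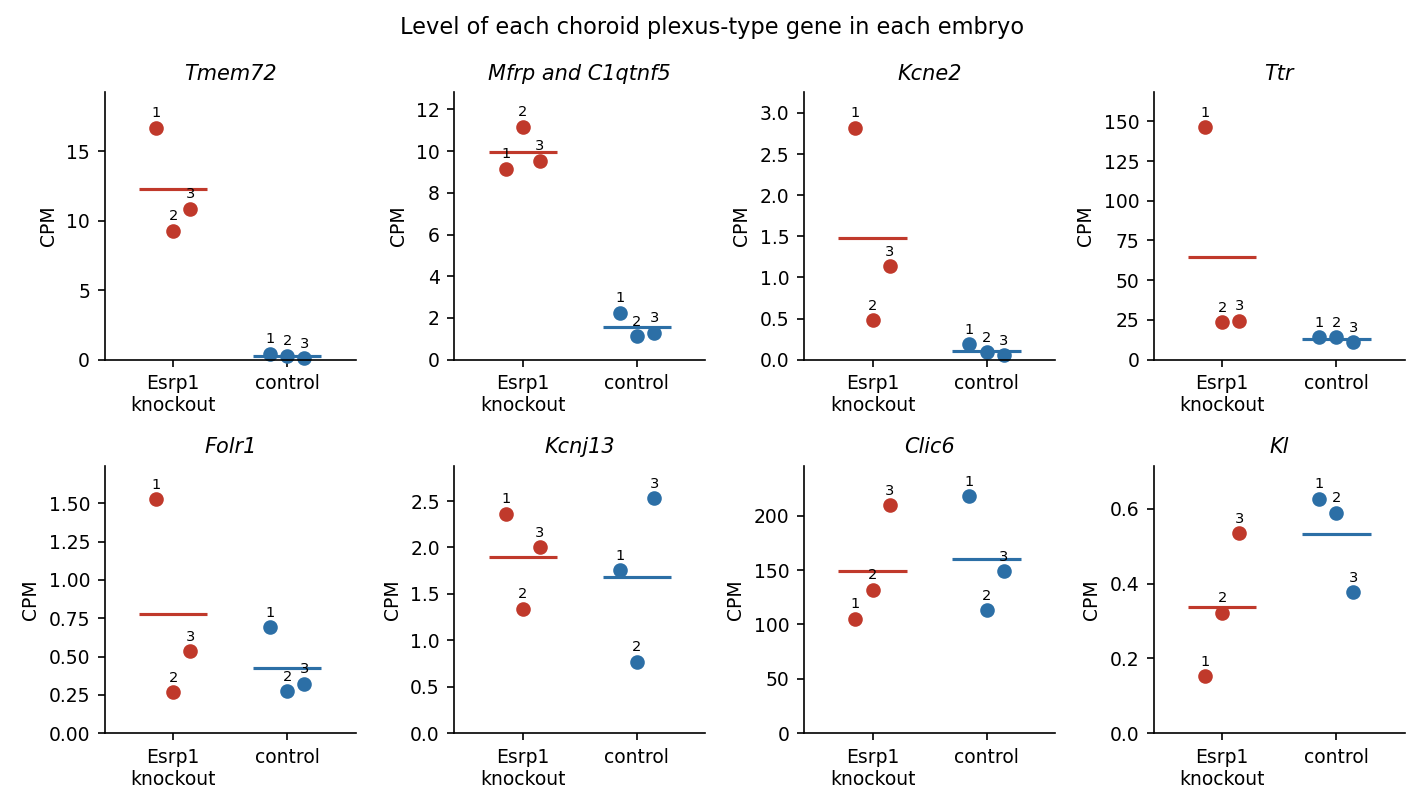
Each point is the level of a gene in 1 embryo in CPM, numbered by embryo, with knockouts left of controls, a line at the mean of 3 embryos, and a vertical axis of its own from 0 in each panel. Tmem72, Mfrp with C1qtnf5, Kcne2 and Ttr did not overlap between the groups, while Folr1, Kcnj13, Clic6 and Kl did, and knockout embryo 1 was the highest of the 6 embryos for Tmem72, Kcne2, Ttr and Folr1.

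Across the 8 measurements, 6 had a higher mean level in knockouts and 2, Clic6 and Kl, a lower one. Of the 5 that passed the filter on reads, 2 passed the threshold, Tmem72 and the Mfrp and C1qtnf5 pair, both upward, where 0.0815% of all genes tested passed it upward. In 3 of the 5 all knockout embryos lay above all controls, where this held for 5.4% of all genes tested, and Kcne2, which was not tested, had the same order. These counts come from the contrast used to pick the genes. The threshold was sensitive to single embryos. Tmem72 no longer passed it without knockout 2 (log2 fold change 5.65) or without control 3 (5.11). Of the 6 fits that each left out 1 embryo, the Mfrp and C1qtnf5 pair passed it only in the one without control 1 (3.03), and its log2 fold change lay between 2.49 and 3.03 in all 6. Knockout embryo 1 had the highest level of 4 of the 8 measurements, where 29.1% of all genes tested were highest in that embryo.

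Levels between genes were compared per transcript length, in the deposited FPKM. In knockout embryos the mean level fell in the order Ttr (25.3 FPKM), Clic6 (17.9), Tmem72 (1.54), Mfrp (1.06), Kcnj13 (0.585), Kcne2 (0.403), Folr1 (0.234) and Kl (0.0278). Ranges were compared only between genes next to each other in this order. Those of Ttr and Clic6, of Tmem72 and Mfrp, of Kcnj13 and Kcne2, and of Kcne2 and Folr1 overlapped. In control embryos the order was Clic6 (18.8 FPKM), Ttr (4.80), Kcnj13 (0.507), Mfrp (0.160), Folr1 (0.121), Kl (0.0468), Tmem72 (0.0334) and Kcne2 (0.0286). There, again between genes next to each other in the order, the ranges of Mfrp and Folr1, of Kl and Tmem72, and of Tmem72 and Kcne2 overlapped. Tmem72 thus ranked 3 of 8 in knockouts and 7 of 8 in controls, while Clic6 ranked 2 in knockouts and 1 in controls. The lower rank of Clic6 rests on Ttr in knockout 1 (58.6 FPKM). In knockouts 2 and 3, Clic6 (16.1 and 24.0 FPKM) lay above Ttr (8.75 and 8.55 FPKM).

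**Figure D3:**
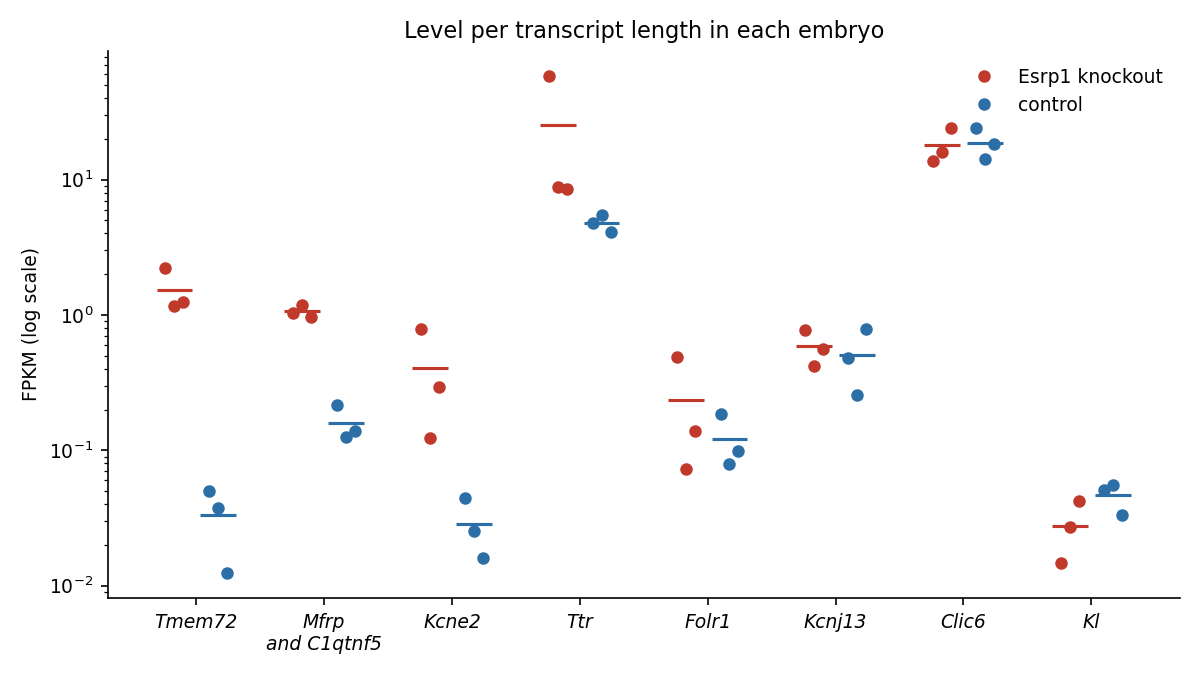
Points give the FPKM of each gene in single embryos on a log scale, knockouts (red) left of controls (blue), with lines at the means. Tmem72 and Mfrp with C1qtnf5 lay near 1 FPKM in knockouts, at 1.54 and 1.06 FPKM on average, and below Kcnj13 (0.507 FPKM) in controls.

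The expression profile over the 6 embryos was compared with those of 12902 other tested genes, by the root mean square difference of log2(CPM + 0.5) after centring each gene on its mean. These likenesses are descriptions over 6 embryos that share the same group difference. Among the closest to Tmem72 were Tmem27 (0.73), an amino acid transport partner in the kidney also called collectrin, the homeobox gene Dlx5 (0.82), the claudin gene Cldn22 (0.96) and Vmo1 (1.01), which encodes a protein first found in the outer layer of the egg's vitelline membrane in birds. Tmem27 was at 21.3, 11.7 and 13.0 CPM in knockouts, against 2.70, 1.32 and 1.99 CPM in controls. Dlx5 was at 11.4, 4.62 and 4.20 CPM in knockouts, against 1.07, 0.363 and 0.647 CPM in controls. In both genes knockout embryo 1 was the highest, as in Tmem72, and control 2 the lowest, where in Tmem72 it was control 3. The profile of Mfrp and C1qtnf5 lay closer to those of other genes, with differences of 0.19 from Cldn22 and 0.21 from Vmo1. Cldn22 was at 46.0, 47.4 and 56.5 CPM in knockouts, against 14.2, 6.62 and 9.92 CPM in controls. Vmo1 was at 16.7, 15.8 and 15.5 CPM in knockouts, against 5.33, 1.95 and 3.02 CPM in controls. Within the members, Mfrp was the closest to Tmem72 (0.90), and Kcne2 was the closest to Ttr (0.46), both being highest in knockout 1.

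Genes along the chromosome within 250 kb of a member locus were next examined, 47 tested genes in all beyond the members. Of these, 2 passed the test, and no other did (5 of the other 45 had an unadjusted p under 0.05, and DESeq2 called 0 of them). The first was Rassf4, a Ras association domain gene that lies 17.7 kb downstream of Tmem72 on the same strand. It was at 232, 192 and 245 CPM in knockout embryos, against 105, 71.1 and 82.8 CPM in controls. All knockouts lay above all controls, and Rassf4 rose by 1.37 ± 0.18 on the log2 scale (adjusted p = 0.0354), less than Tmem72 itself. Leaving out single embryos gave log2 fold changes of 1.25 to 1.53 with adjusted p of 0.0165 to 0.217, and only without control 1 did it still pass. The other 3 tested genes within 250 kb of Tmem72 did not pass. The GENCODE model of Tmem72 ends nearer to Rassf4 than the RefSeq one, and whether reads run through from one gene to the next was not tested.

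The second was Kcne1, whose product is the accessory subunit of the potassium channel through which the stria secretes, 47.9 kb from Kcne2 and 139 kb from Clic6. It fell to 0.152, 0.644 and 0.534 CPM in knockout embryos, against 16.1, 8.94 and 10.8 CPM in controls (log2 fold change -4.67 ± 0.45, adjusted p = 0.0137). Kcne1 and Kcne2 are neighbours of the same gene family, and their reads stood in opposite order between the groups, Kcne1 lower and Kcne2 higher in every knockout than in every control. Kcnq1, the pore-forming partner of both, did not pass (log2 fold change -0.91, adjusted p = 0.808). Among the 5 tested genes of the KCNE and KCNQ1 list beyond Kcne2, Kcne1 was the 1 that passed. Without single embryos its adjusted p was 0.00835 to 0.0994, with log2 fold changes of -5.05 to -4.32. Near Mfrp, the ubiquitin peptidase gene Usp2, 6.14 kb away, gave a log2 fold change of 0.72 ± 0.28 (adjusted p = 0.905), and none of the 12 tested neighbours passed. The other neighbours ran from the transcription factor gene Runx1 near Clic6, at -0.69 ± 0.48 (adjusted p = 0.994), to the ADP-ribosyltransferase gene Art5 near Folr1, at 1.47 ± 0.59 (adjusted p = 0.927). Art5 was at 1.07, 1.40 and 0.867 CPM in knockouts, against 0.376, 0.136 and 0.701 CPM in controls.

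**Figure D4:**
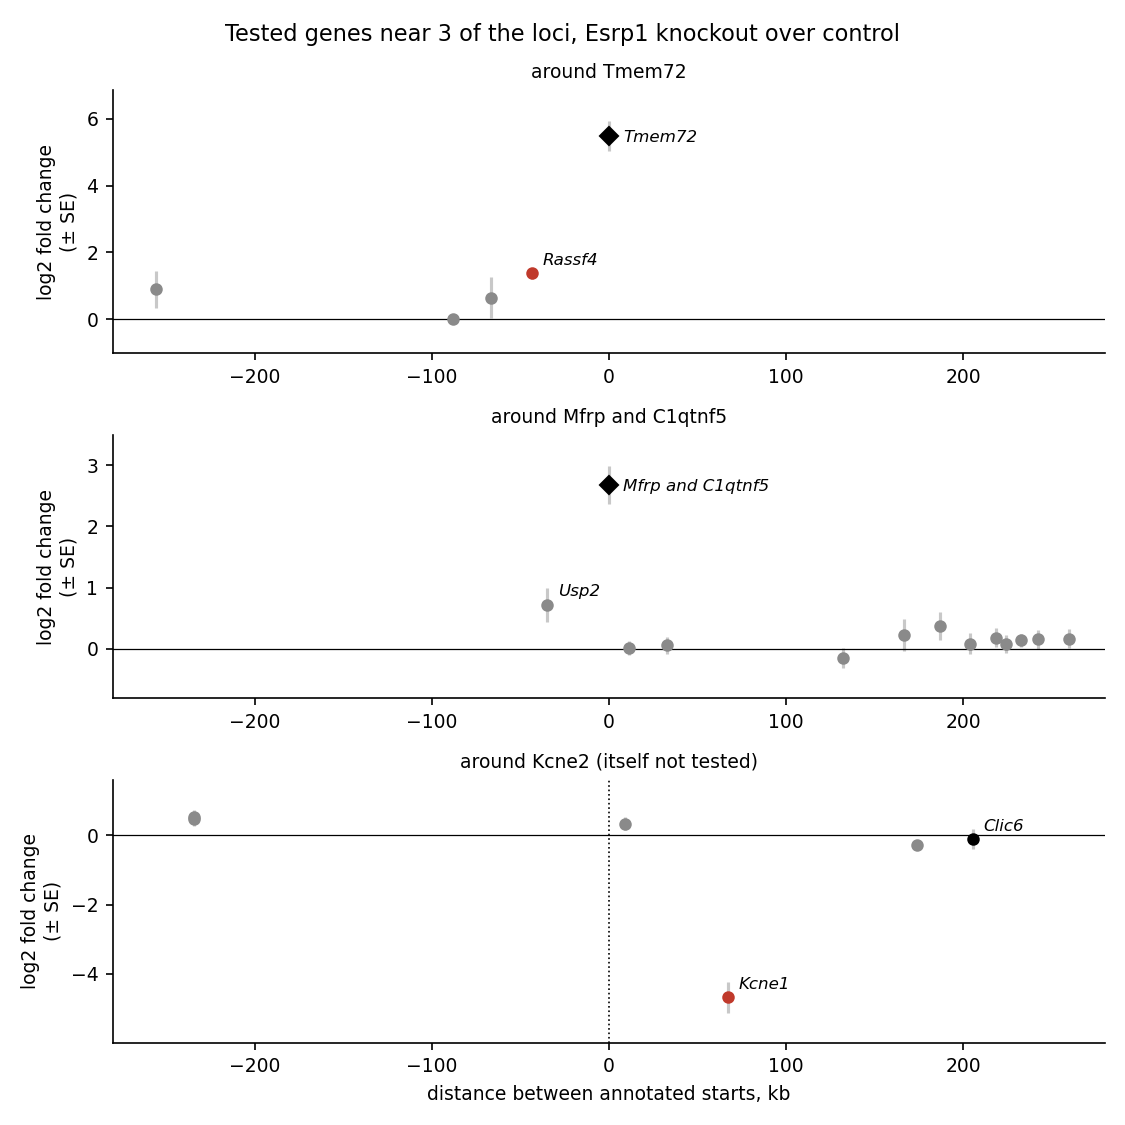
Log2 fold changes (knockout over control, ± SE) of tested genes are plotted against the distance in kb between annotated starts along the chromosome, around Tmem72, around Mfrp and C1qtnf5, and around Kcne2, which itself was not tested. Black points are members and red points genes beyond them that passed the test, Rassf4 at 1.37 and Kcne1 at -4.67.

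A list of 42 further genes that the choroid plexus expresses, written with earlier results of these data known, was set beside the members. Of the 41 found in the table, 35 were tested, and none passed (5 had an unadjusted p under 0.05, and DESeq2 called 1, Otx2). Of the 35, 24 had a positive log2 fold change, with a median of 0.21 and a range of -0.86 to 1.01, where the median of all genes tested was 0.00 and 50.3% were positive. In 6 of them all knockout embryos lay above all controls, where this held for 5.4% of all genes tested. In 2 all lay below, an order that was not counted over all genes tested, so that no share stands beside it. Otx2 had the highest fold change. It was at 76.8, 70.2 and 80.8 CPM in knockouts, against 57.2, 23.4 and 32.5 CPM in controls (log2 fold change 1.01 ± 0.29, adjusted p = 0.494). The other genes with separated groups included the growth factor binding protein gene Igfbp2 (0.96, adjusted p = 0.589). Aqp1, the water channel of the choroid plexus, had 195, 78.3 and 86.1 CPM in knockouts, against 66.1, 91.7 and 109 CPM in controls. Slc12a2, the sodium-potassium-chloride carrier that serves fluid secretion in both choroid plexus and stria, gave a log2 fold change of -0.40 (adjusted p = 0.994). Without knockout embryo 1, the list's median was 0.08.

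**Figure D5:**
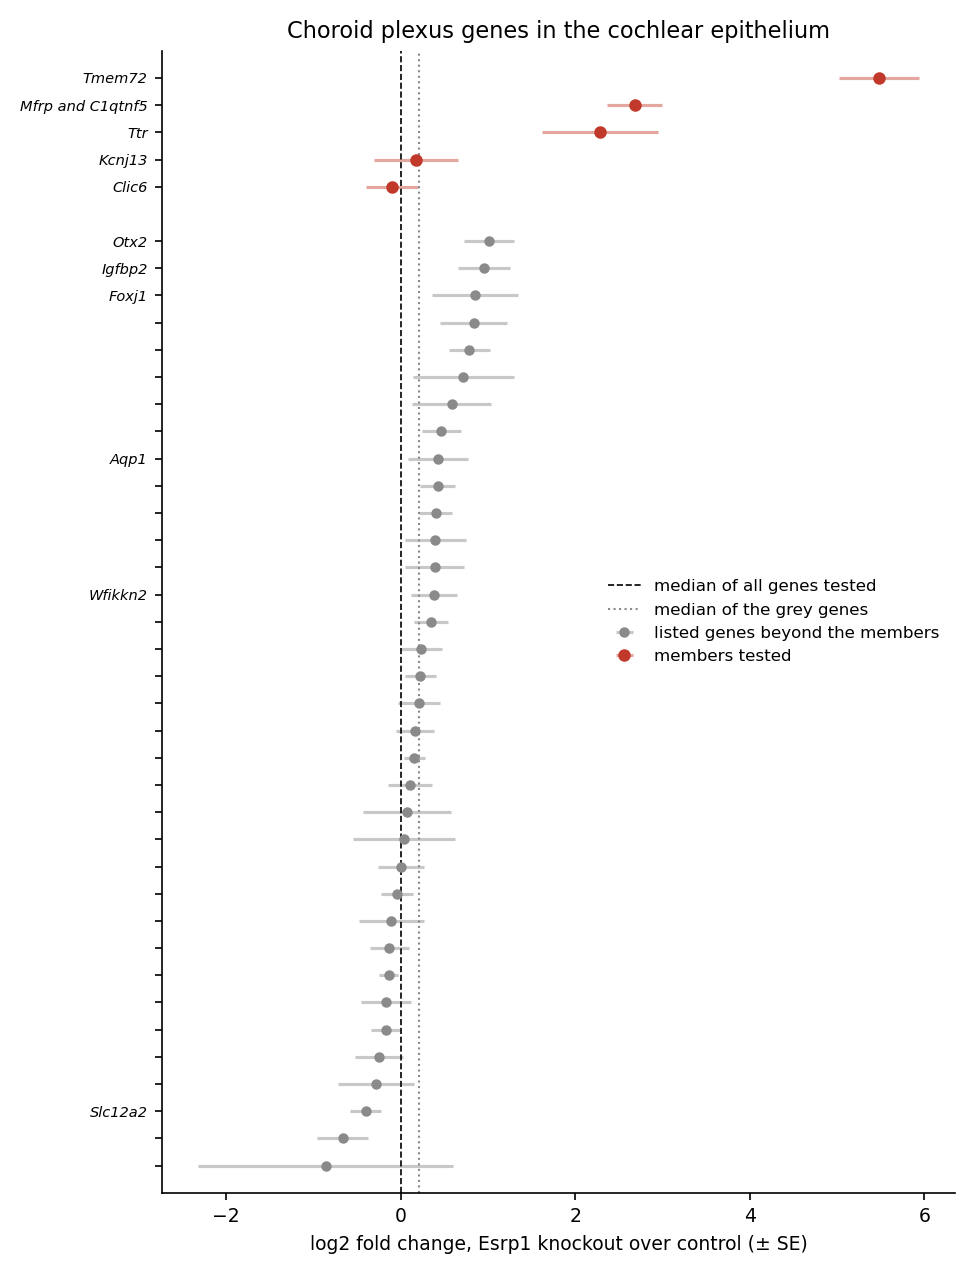
Log2 fold changes (knockout over control, ± SE) of the 5 tested members (red, top) and the 35 tested genes of the choroid plexus list beyond them (grey, some of them named), with the medians of all genes tested (dashed) and of the grey genes (dotted). The grey genes lay between -0.86 and 1.01, below Ttr (2.29), Mfrp with C1qtnf5 (2.68) and Tmem72 (5.48), which were picked with their values known.

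Defining markers of choroid plexus tissue were read as a check on the name. The 12 markers, 5 of them members, summed to 355, 233 and 342 CPM in knockouts, against 340, 182 and 249 CPM in controls, most of it from Clic6, Wfikkn2 and Ttr. The markers Prlr, Htr2c and F5 stayed at or below 1.33 CPM in every embryo, as did Kl, and Prlr was at 0 in knockout 1. Of the 4 tested markers beyond the members none passed (0 with an unadjusted p under 0.05, and 0 by DESeq2), and Wfikkn2, a secreted inhibitor of growth factors, gave a log2 fold change of 0.38 (adjusted p = 0.994). Slc13a4, a sulphate carrier of choroid plexus and meninges, was at 2.67, 3.06 and 0.0667 CPM in knockouts, against 0, 0.272 and 10.3 CPM in controls, highest in a control embryo. The name choroid plexus-type is therefore a label for the set, whose genes are in part known from other tissues, and is not a call of that tissue in these samples. The part of any such tissue in the members' levels was not tested.

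Markers of other tissues that express some of the members were read next. For kidney epithelium, 4 of 15 markers were at 0 in every embryo, among them Umod and Slc34a1. Of the 4 tested, 1 passed, Tmem27, which rose by 2.94 ± 0.35 (adjusted p = 0.0255). The other 3 had negative fold changes, so that the median was -0.42, and DESeq2 called 2 of the 4. Lrp2, which encodes the endocytic receptor megalin and was chosen after its values were seen, was at 263, 249 and 418 CPM in knockouts, against 965, 524 and 604 CPM in controls (log2 fold change -1.17 ± 0.28, adjusted p = 0.277). For Tmem27, the adjusted p without single embryos was 0.0165 to 0.147. For retinal pigment epithelium, Rpe65 was at 0 in every embryo, and none of 9 tested genes passed (2 with an unadjusted p under 0.05, and 1 by DESeq2). The smallest adjusted p there was that of the retinol dehydrogenase gene Rdh10 (log2 fold change 0.82, adjusted p = 0.224). Of these 9 genes, 8 had a positive log2 fold change, with a median of 0.39, where 50.3% of all genes tested were positive. Knockout 1 was the highest embryo for 5 of the 9, where this held for 29.1% of all genes tested. For ciliated ependymal cells, the summed level was 19.1, 6.66 and 5.54 CPM in knockouts, against 6.77, 4.49 and 5.60 CPM in controls. Foxj1, the master regulator of motile cilia, was at 16.2, 5.31 and 4.0 CPM in knockouts, against 5.39, 3.72 and 4.96 CPM in controls, so that knockout 1 stood out as it did for Ttr and Kcne2. Its log2 fold change was 0.85 (adjusted p = 0.994), and -0.01 without knockout 1. Lists for liver with yolk sac and for meninges were added after values were seen. The liver list had 4 of 9 genes at 0 in every embryo and summed to at most 2.90 CPM, and the meninges list summed to 216, 241 and 158 CPM in knockouts, against 115, 183 and 346 CPM in controls. None of their tested genes passed (0 with an unadjusted p under 0.05, and 0 by DESeq2).

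In the list for the cochlear roof and Reissner membrane, 10 of 12 tested genes had a positive log2 fold change, with a median of 1.06 where that of all genes tested was 0.00. That list was written with earlier results of these data known, so its counts beside those of all genes are descriptions and no test of the roof. The test was passed by 1 gene upward and 1 downward, where 0.149% of all genes tested passed. An unadjusted p under 0.05 was found for 9 of the 12, where 702 of all 14717 genes tested had one, and DESeq2 called 8. In 8 of them all knockout embryos lay above all controls, where this held for 5.4% of all genes tested. Slc26a7, an anion exchanger gene, rose by 1.69 ± 0.22 (adjusted p = 0.0354). It was at 60.2, 74.1 and 100.3 CPM in knockouts, against 28.4, 18.8 and 25.7 CPM in controls. Enpep, which encodes an aminopeptidase, fell by 1.94 on the log2 scale (adjusted p = 0.0365). It was at 71.5, 50.9 and 58.2 CPM in knockouts, against 326, 162 and 203 CPM in controls. Without single embryos the adjusted p was 0.0468 to 0.206 for Slc26a7 and 0.0165 to 0.191 for Enpep. Vmo1 (log2 fold change 2.24, adjusted p = 0.0675) and Dlx5 (3.30, adjusted p = 0.107), which have profiles close to that of Tmem72, belong to the same list and did not pass.

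The families to which the members belong were read as well, and in none of them did a further gene pass beyond Kcne1. In the C1q and TNF family, none of 6 tested relatives of C1qtnf5 passed, C1qtnf7 having a log2 fold change of 0.53 (adjusted p = 0.994). In the frizzled-related family, Frzb, a secreted Wnt antagonist, had -0.93 (adjusted p = 0.166). The inward rectifiers gave -0.27 for Kcnj10 (adjusted p = 0.994), a potassium channel of strial intermediate cells. The chloride intracellular channels gave 0.27 for Clic1 (adjusted p = 0.994). In the folate group, Slc19a1, the reduced folate carrier, had 0.43 (adjusted p = 0.903), and among klotho partners the receptor gene Fgfr3 had -0.79 (adjusted p = 0.541). In retinol and thyroid hormone carriage, none of 5 tested genes beyond Ttr passed. Of the endolymphatic sac genes, Atp6v1b1, a proton pump subunit, had -0.62 (adjusted p = 0.994).

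Cell types that could be carried along showed no called gene in any list. None of 8 tested genes of neurons and Schwann cells and none of 4 of blood cells passed. The leading genes of the other lists were Col1a1 for mesenchyme (log2 fold change 1.12), Slc17a7 for brain (-1.21), Tyr for melanocytes (-1.15, adjusted p = 0.630), C1qa for macrophages (0.57) and Cdh5 for endothelium (-0.18), the others each with an adjusted p of 0.994. The mesenchyme genes summed to 2764, 2626 and 2543 CPM in knockouts, against 1345, 2371 and 2758 CPM in controls, so that control 1 stood apart as the lowest. The brain list held 1 of 9 genes at 0 in every embryo and summed to 69.5, 102 and 123 CPM in knockouts, against 137, 84.6 and 97.7 CPM in controls. All 7 melanocyte genes tested had negative fold changes, with 154, 74.4 and 79.8 CPM summed in knockouts, against 226, 137 and 146 CPM in controls. An unadjusted p under 0.05 was found for 4 of the 7, and DESeq2 called 0. All 6 macrophage genes tested had positive log2 fold changes (median 0.48), 0 of them with an unadjusted p under 0.05, and 5 were highest in knockout 1. All 4 blood cell genes (median -0.59) and all 5 endothelial genes (median -0.09) had negative ones. Over these lists, the families other than the KCNE genes, and those of cochlear epithelium, retinal pigment epithelium, ependymal cells and endolymphatic sac, 18 in all, 100 genes beyond the members were tested, 14 had an unadjusted p under 0.05, and DESeq2 called 3. Whether a change in these cell types contributes to the members' levels was not tested.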

How the data were processed

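RNA-seq of cochlear epithelium from 6 embryos, 2 libraries each, was analysed. Per the file headers, the deposited table gives raw read counts per RefSeq transcript, and FPKM, scaled by the authors for length and depth, with the libraries of an embryo together in 1 column. The submitters' processing notes name edgeR and mm10. Which aligner and counter were used is not given in the sources used here, and 17 further columns were not used.

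Of 28644 transcript rows for 22869 symbols, the row with the most reads stood for a gene. Total counts per embryo are given with the results. Counts were filtered with filterByExpr (minimum count 10), scaled by TMM, and tested with edgeR 4.0.16 (R 4.3.3) by its quasi-likelihood test with Benjamini-Hochberg adjustment (threshold 0.05). P-values rest on the spread between embryos. Ratios of summed reads and shares carry exact 95% intervals (Clopper-Pearson, scaled by effective library size for ratios). Reads are not independent molecules, and intervals cover counting error only.

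Gene positions, promoters and neighbours come from RefSeq on GRCm38.p6 and exon models from GENCODE M21. Windows were matched by symbol. No window is shown for Folr1, Clic6 or Ttr.

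The members and the 23 gene lists were chosen with earlier results of these data known. Named genes are the members, Esrp1, Kcne1 and Otx2, neighbours within 250 kb that passed (nearest neighbours given in part), for each list the genes that passed or else the one with the smallest adjusted p, and the genes closest in profile to Tmem72 (5) and to Mfrp (3), with a mean CPM of at least 1. Some genes under this rule are not reported here. Igfbp2, Aqp1, Slc12a2, Slc13a4, Kcnq1, Lrp2, Art5 and the markers cited as present or at 0 were chosen after their values were seen. Alternatives were RLE size factors, no count filter, DESeq2 1.42.0, a replicate block, sex as a term, the row with the highest FPKM, and leaving out embryos.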

Additional observations from a re-analysis of the deposited data

How the results depend on the processing

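The number of genes called, 22, became 167 with DESeq2, 159 without both embryos numbered 1, and 5 with sex as a term, drawn from Xist and Ddx3y. That term sets knockouts 2 and 3 apart from the other 4 embryos, so that sex is partly confounded with genotype. Under it the Mfrp and C1qtnf5 pair (2.56) was no longer past the threshold and Ttr (3.47) was, beside Tmem72. DESeq2 called 3 member measurements, Kcne2 being the added one. Leaving out single embryos gave 0 to 30 calls. The 2 settings with 0 calls in edgeR were those without knockout 2 (680 genes at an unadjusted p under 0.05) and without control 3 (540). RLE size factors (22), no count filter (31) and the row with the highest FPKM (21) stayed within 1.5 times.

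Under the replicate block there were 6 calls, and of the 2 member measurements that had passed, the Mfrp and C1qtnf5 pair no longer did (log2 fold change 2.72). Same-numbered embryos deviated together with correlations of 0.08, 0.18 and 0.03. Knockouts 1 and 2 each correlated best with the control of their own number, knockout 2 nearly as well with control 3 (0.16). Knockout 3 correlated better with control 1 (0.11) than with its own number. The main fit did not pair the embryos, and these correlations do not settle whether the numbers pair them. Same-numbered embryos also share a prefix in the labels, which do not say what it marks. Leaving out single embryos gave 0 to 2 member measurements past the threshold and 5 to 7 with a higher mean in knockouts. The median of the choroid plexus list ran from 0.0765 to 0.284 on leaving out single embryos.

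Besides the uncalled members Clic6 and Kcnj13, the sign of 3 uncalled genes named beyond the members turned. Without single embryos, Aqp1 ran from -0.13 (without knockout 1) to 0.66, Foxj1 from -0.0104 (without knockout 1) to 1.18, and Cdh5 from -0.39 to 0.11, above 0 without knockout 3 (0.0251) and without control 2 (0.11). Without both embryos numbered 1, Aqp1 was at -0.30. The 7 called genes named beyond the members kept their direction in all 91 values compared, of which 42 missed the threshold. Of 351 values of the 27 uncalled genes, 16 passed it. Levels recomputed by transcript length were not run, because no length is given. The depth limits what can be said of Folr1, Kl and Kcne2, which had the fewest reads.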
